A study of Mus musculus with 3 samples.

Results

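The genes of the caveolar coat and neck were examined in sequenced poly(A) RNA of 3 mouse heart libraries, all from wild-type males 12 weeks old. The set held the caveolins Cav1, Cav2 and Cav3, the cavins Cavin1, Cavin2, Cavin3 and Cavin4, the ATPases Ehd2 and Ehd4, and the F-BAR protein gene Pacsin3. Members were chosen by gene symbol, and all 10 were found under their current symbols among the 16587 genes of the table. The labels give wild-type genotype and heart as tissue for every library and name no treatment, so the libraries form 1 group and there was no contrast between groups. Whether each library is a different animal is not stated, so every p-value here reflects the spread of these 3 samples alone, and that spread may be technical. The strain was not given in the sources used here.

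Caveolae are flask-shaped pits of the plasma membrane, rich in cholesterol, that buffer membrane tension and hold signalling proteins. Caveolins are inserted into the inner leaflet and cavins form a coat on its cytoplasmic face, while EHD ATPases sit at the neck and F-BAR proteins such as pacsins bend the membrane. In the heart caveolae are abundant in endothelial cells and in cardiomyocytes, where Cav3 and Cavin4 are the forms known from muscle and Cav1 is the form known from endothelium, smooth muscle, fibroblasts and adipocytes.

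The promoters of 4 members are shown because the levels described here turn on the forms known from muscle (Cav3, Cavin4) and their broadly expressed partners (Cav1, Cavin1). RefSeq (GRCm38.p6) gave 12 promoter windows for 9 of the 10 members, each of 300 bases, from 250 bases before to 50 after an annotated start. The file of counts carries no coordinates, and its processing notes name GRCm39. Of the starts annotated for Cav1 and Cavin1 the one with the lowest coordinate is shown. Sequences read 5′ to 3′ on the strand of the gene. Capitals mark the E-box CANNTG, the MCAT element CATTCC and the GC box GGGCGG, searched on both strands.
Cav3, chr6:112459255-112459554, plus strand: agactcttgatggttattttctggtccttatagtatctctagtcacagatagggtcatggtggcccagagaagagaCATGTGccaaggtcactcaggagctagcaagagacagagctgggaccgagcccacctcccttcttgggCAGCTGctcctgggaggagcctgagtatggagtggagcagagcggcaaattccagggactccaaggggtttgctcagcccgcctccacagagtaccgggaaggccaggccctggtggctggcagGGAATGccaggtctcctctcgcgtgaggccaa
Cavin4, chr4:48663264-48663563, plus strand: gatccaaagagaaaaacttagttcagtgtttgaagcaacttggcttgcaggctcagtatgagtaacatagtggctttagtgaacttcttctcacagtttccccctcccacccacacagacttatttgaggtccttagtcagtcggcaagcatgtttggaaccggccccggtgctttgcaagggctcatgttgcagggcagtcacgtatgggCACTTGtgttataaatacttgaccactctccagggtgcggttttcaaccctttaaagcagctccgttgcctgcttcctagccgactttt
Cav1, chr6:17306085-17306384, plus strand: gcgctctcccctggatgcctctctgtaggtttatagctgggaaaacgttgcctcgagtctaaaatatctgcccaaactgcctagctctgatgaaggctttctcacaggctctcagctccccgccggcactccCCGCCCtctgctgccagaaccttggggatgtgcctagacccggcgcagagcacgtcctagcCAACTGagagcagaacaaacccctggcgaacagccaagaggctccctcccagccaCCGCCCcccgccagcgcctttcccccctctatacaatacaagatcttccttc
Cavin1, chr11:100970566-100970865, minus strand: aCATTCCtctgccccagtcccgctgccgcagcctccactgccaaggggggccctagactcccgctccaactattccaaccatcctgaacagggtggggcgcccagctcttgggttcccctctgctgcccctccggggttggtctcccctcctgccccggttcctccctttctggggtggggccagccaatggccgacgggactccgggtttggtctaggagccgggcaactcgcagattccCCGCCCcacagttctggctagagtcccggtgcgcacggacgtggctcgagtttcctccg
The Cav3 window held 2 E-boxes and 1 MCAT element and no GC box. The Cavin4 window held 1 E-box and 1 TATA box (TATAAA), with neither of the other capitalised motifs. The Cav1 window held 1 E-box, 2 GC boxes and 1 match to the TATA box, and the Cavin1 window 1 MCAT element and 1 GC box. The TATA box was also searched on both strands. The Cav1 match reads TTTATA, on the opposite strand, and lies near the upstream end of the window, far from the start. That of Cavin4 lies on the strand of the gene. None of these 4 windows had motifs that overlapped one another. Of the 9 members with a window, 6 held an E-box in at least 1 window and 3 an MCAT element (Cav3, Cavin1 and Pacsin3). A GC box was held by 6, and a match to the TATA box on either strand by 2. Among all 32851 promoter windows the shares were 72.3% for the E-box, 14.7% for the MCAT element, 35.7% for the GC box and 13.6% for the TATA box. These shares are per window, while a member with more than 1 window was counted if any of them matched. The member counts are therefore not directly comparable with them. The CArG box and the MEF2 element were matched in 0 of the 9 members, and in 1.63% and 0.557% of all windows. The Cav3 and Cavin4 windows held 6 and 7 CpG dinucleotides, against 13 in the Cav1 window, 18 in the Cavin1 window and a median of 7 over all windows. Among members not shown, the windows held 4 for Cavin2, 16 for Cav2, 18 for Ehd2, 29 for Ehd4, and 24 and 12 for Pacsin3. The members therefore did not split by CpG into forms known from muscle and others. Cav2 and Cav1 are neighbours on chromosome 6, in the order Tes, Cav2, Cav1 and Met among protein-coding genes, and Cav3 lies apart from them on the same chromosome.

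Total counts were 25311388, 26398140 and 24914479 in libraries 1, 2 and 3. Heart muscle markers led the tissue check, with Myh6 at 23310 CPM (counts per 1000000 counts in the library), Actc1 at 13070 CPM and Myl2 at 11370 CPM, and all 10 cardiomyocyte markers reached 1 CPM in every library. So did all 10 endothelial, 8 fibroblast, 7 mural (pericyte and smooth muscle) and 7 macrophage markers. Of 8 adipocyte markers, 1 was detected in every library, Fabp4, which endothelium also expresses. The next highest, Pck1 and Cfd, had 78, 3 and 12 counts and 23, 16 and 36 counts, and the defining markers Adipoq and Plin1, named after their values were seen, had 5, 6 and 9 and 1, 5 and 15 counts. The fast skeletal muscle gene Myh1 and the lung surfactant gene Sftpb had 0 counts throughout, which allows up to 0.114 to 0.120 CPM, counting error only. Their lists were not absent as a whole. Among 7 skeletal muscle markers with a row of counts, 3 reached 1 CPM in every library: Ckm, Acta1 and Tnni2 (54, 58 and 51 counts). Tnnt3 had 11, 15 and 11 counts, Actn3 4, 0 and 9, and Myh2 1, 0 and 1. Among 3 such lung markers, 1 did, Hopx (265.5, 310.3 and 283.8 CPM), while Ager had 5, 3 and 9 counts. From which cells the reads of Ckm, Acta1, Tnni2 and Hopx came was not tested. Library 1 stood apart in liver genes (Alb at 1447, 0 and 29 counts), and all 6 were highest there. Library 3 stood apart in 5 of 6 mesothelial genes (Msln at 0, 0 and 107 counts). The other, Wt1, was lowest in library 3 (506, 395 and 252 counts). The 5 blood genes, led by Hbb-bs, summed to 2221, 1047 and 1697 CPM and were all called by edgeR as varying between libraries. So were all 3 liver genes tested (Apoa2, Serpina1e and Hp), against 0.591% of all genes tested. The part of liver, mesothelial and blood RNA in the levels given here was not tested. In RNA from whole tissue, fewer cells of a type and less RNA per cell cannot be told apart.

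All 10 members reached 1 CPM in each of the 3 libraries, the limit used here for detection. Together they took 0.245%, 0.259% and 0.275% of the counts in libraries 1, 2 and 3. Levels were compared between genes as TPM, which divides counts by annotated exon length and scales each library to 1000000. On this scale the members summed to 2331 ± 164 TPM (SD, n = 3). The least abundant, Cav2, lay above 87.0% of the genes with a length, and the most abundant, Cav1, above 98.1%.

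**Figure D1:**
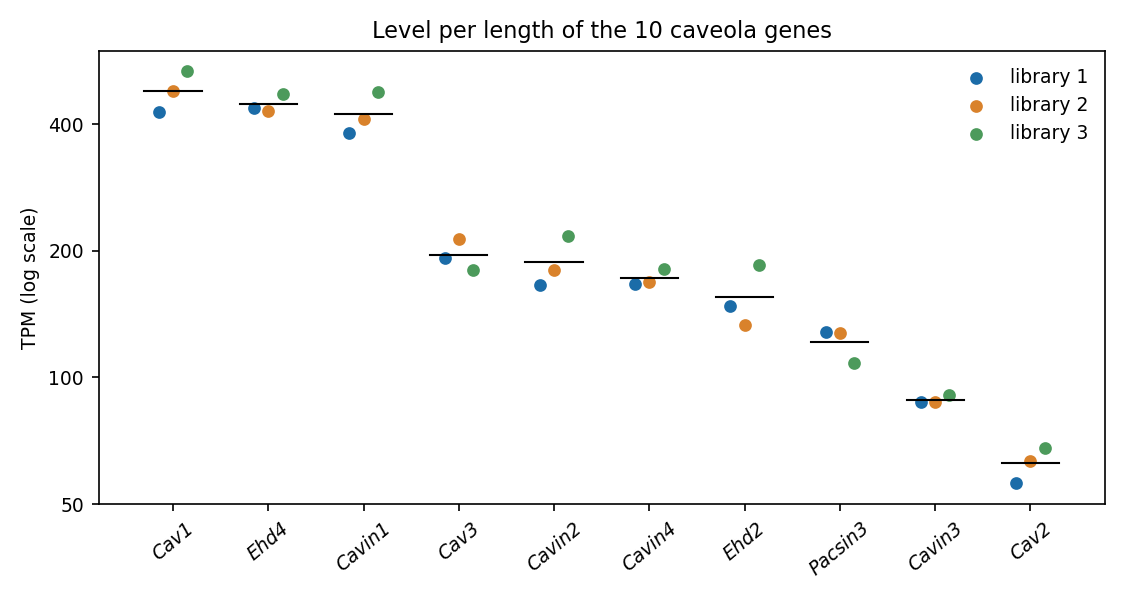
Level of each caveola gene in TPM on a log axis; points are the 3 libraries and bars their mean, with genes in falling order of the mean. Cav1, Ehd4 and Cavin1 lie between 380 and 534 TPM in every library, and the 3 values of each of the other genes lie at or below 217 TPM.

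Cav1, the caveolin that builds caveolae outside striated muscle, stood at 428, 480 and 534 TPM in libraries 1, 2 and 3, from 12518, 14888 and 14859 counts. Cav3, the muscle caveolin, stood at 192, 214 and 180 TPM, from 1886, 2229 and 1685 counts. Cav2, which depends on Cav1 to reach the cell surface, stood at 56.0, 63.4 and 68.1 TPM, from 1585, 1906 and 1837 counts. Library 1 was lowest for Cav1 and Cav2, while library 3 was highest for both and lowest for Cav3. No value of any caveolin overlapped with those of another.

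Within the caveolin family, Cav1 made up 65.0 ± 2.83% of the counts per kilobase, Cav3 26.6 ± 3.05% and Cav2 8.46 ± 0.227% (SD, n = 3). The share of Cav3 was 28.4% and 28.2% in libraries 1 and 2 and 23.0% in library 3. Cav3 stood below Cav1 by log2 ratios of -1.16, -1.17 and -1.57 in libraries 1, 2 and 3, a mean of -1.30 ± 0.23, which is 2.46-fold lower. Cav2 stood below Cav1 by -2.94, -2.92 and -2.97, a mean of -2.94 ± 0.03, or 7.68-fold lower. Between the highest and lowest library the Cav2 ratio differed by 0.05 and the Cav3 ratio by 0.41 on the log2 scale.

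Cavin1, without which caveolae do not form, stood at 380, 410 and 476 TPM from 11565, 13261 and 13804 counts. Cavin2, a cavin that binds phosphatidylserine and acts on membrane curvature, stood at 166, 180 and 217 TPM from 4299, 4953 and 5364 counts. Cavin4, the muscle cavin, stood at 167, 169 and 181 TPM from 2903, 3124 and 3005 counts. The values of Cavin2 and Cavin4 overlapped, and each was lowest in library 1 and highest in library 3, as was Cavin1. Cavin3, first known as a binding protein of protein kinase C delta, stood at 87.5, 87.4 and 90.7 TPM from 1234, 1309 and 1218 counts. It was the lowest cavin in every library.

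By counts per kilobase the cavin family was 48.4 ± 0.918% Cavin1, 21.5 ± 0.913% Cavin2, 19.8 ± 1.04% Cavin4 and 10.2 ± 0.777% Cavin3 (SD, n = 3). Cavin2 stood below Cavin1 by log2 ratios of -1.20, -1.19 and -1.13, or 2.25-fold. Cavin4 stood below Cavin1 by -1.19, -1.28 and -1.40, or 2.44-fold. Cavin3 stood below Cavin1 by -2.12, -2.23 and -2.39, or 4.75-fold. The ratios of Cavin3 and Cavin4 to Cavin1 were both closest to equal levels in library 1 and farthest in library 3, whereas that of Cavin2 was nearest to equal in library 3.

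**Figure D2:**
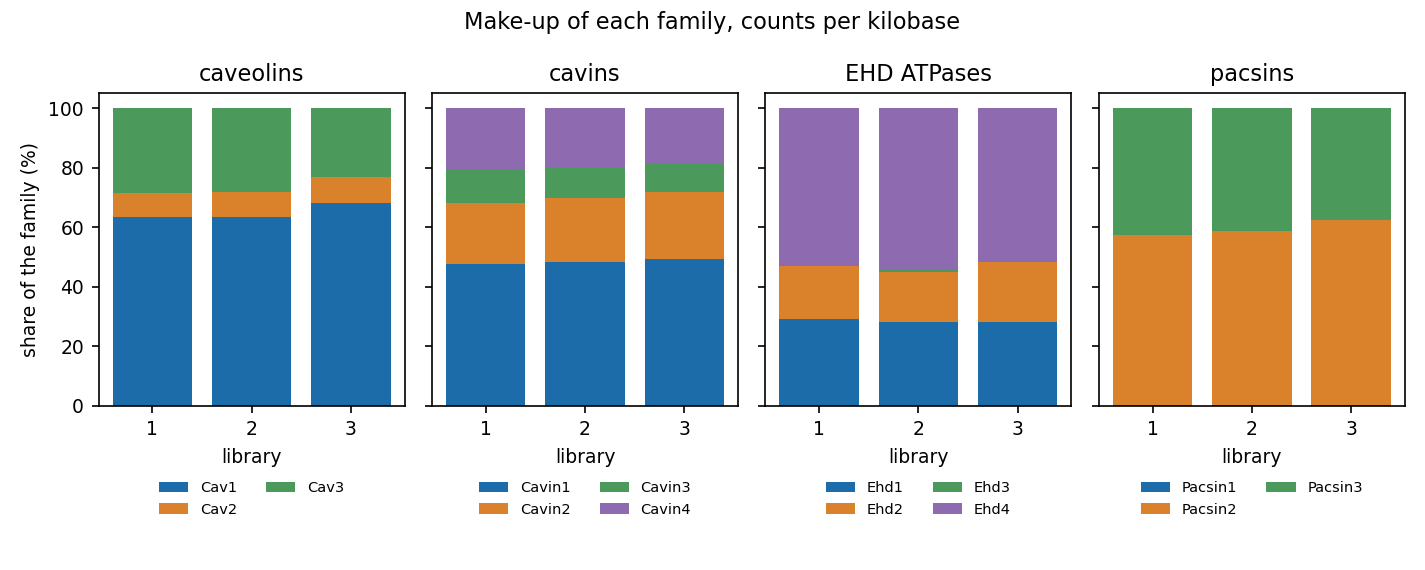
Share of each gene in the counts per kilobase of its family, in percent, stacked for libraries 1 to 3; Ehd3 (0.430%) and Pacsin1 (0.177%) are too small to be seen clearly. Cav1 is the largest part of the caveolins, Cavin1 of the cavins, Ehd4 of the EHD ATPases and Pacsin2 of the pacsins in every library.

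The cavin and caveolin families were close in summed level. Summed cavins over summed caveolins per kilobase gave 1.18, 1.12 and 1.23 in libraries 1, 2 and 3 (1.18 ± 0.058; SD, n = 3). With the longest transcript as length the ratio was 1.01. Cavin1 over Cav1 was 0.887, 0.855 and 0.892, and Cavin4 over Cav3, the muscle forms, was 0.867, 0.790 and 1.005. The ratio of the muscle pair had the larger SD (0.109, against 0.020 for the broadly expressed pair), a difference that was not tested. This does not describe the genes singly. By CPM the coefficient of variation was 11.2% for Cav3, 2.53% for Cavin4, 9.43% for Cav1 and 9.64% for Cavin1.

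Ehd2, the ATPase that ties caveolae to the cell surface, stood at 148, 133 and 185 TPM from 6423, 6129 and 7663 counts. Ehd4, a relative known from endosomes, stood at 438, 430 and 471 TPM from 14887, 15526 and 15265 counts. Ehd4 lay above Ehd2 in every library, by log2 ratios of 1.57, 1.69 and 1.35, or 2.90-fold. Of the family genes outside the member list, the endosomal Ehd1 stood at 242, 223 and 260 TPM, above Ehd2 by 0.71, 0.75 and 0.49 (1.57-fold). Ehd3, known from cardiac membrane trafficking, stood at 3.47, 3.82 and 3.58 TPM, and its log2 ratio to Ehd2 was -5.40 ± 0.29 (42.4-fold lower). Ehd4 was the largest part of the EHD family at 52.8 ± 1.62%, and Ehd2 made up 18.3 ± 1.70% (SD, n = 3).

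Pacsin3, the F-BAR protein enriched in muscle, stood at 128, 127 and 108 TPM from 4711, 4959 and 3784 counts, lowest in library 3. Pacsin2, the broadly expressed pacsin of caveolar necks, stood at 173, 180 and 179 TPM. Pacsin1, known from neurons, had 47, 24 and 18 counts, or 0.849, 0.408 and 0.341 TPM. Pacsin2 stood above Pacsin3 by log2 ratios of 0.43, 0.50 and 0.73 (1.47-fold), and Pacsin1 stood below it by -7.92 ± 0.60. The order of Pacsin2 and Pacsin3 depended on gene length. The annotated exons of Pacsin3 span 4327 bases and its longest transcript 1993, and with the longest transcript the mean log2 ratio was -0.15 (limma adjusted p = 0.202) and Pacsin3 stood at 195 TPM.

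**Figure D3:**
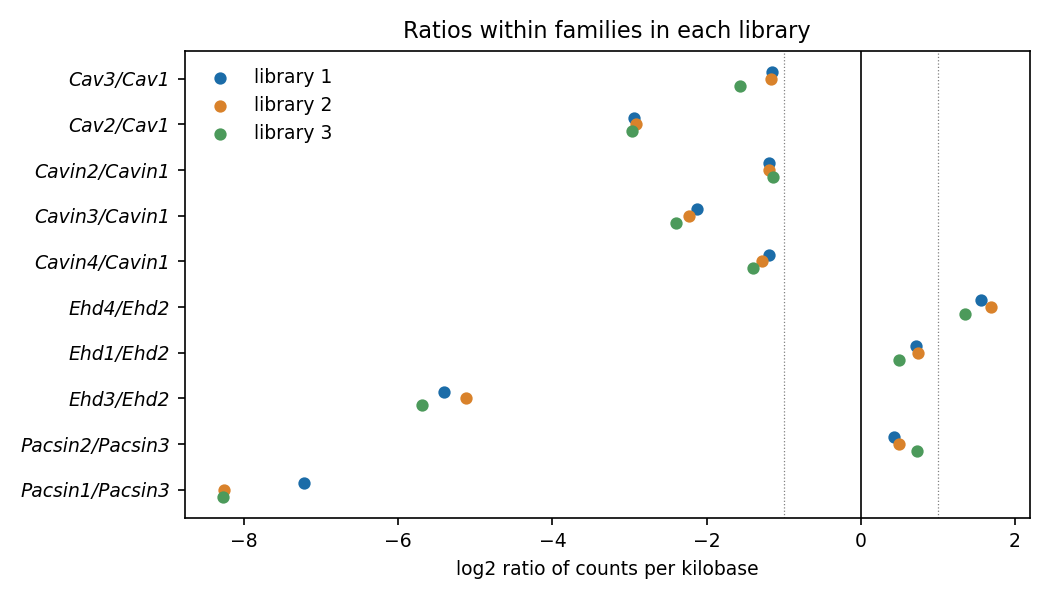
Log2 ratio of counts per kilobase for 10 pairs within families, 1 point per library; the solid line marks equal levels and the dotted lines a 2-fold difference. All 3 points of each pair lie on the same side of 0, and those of Ehd1/Ehd2 (0.49 to 0.75) and Pacsin2/Pacsin3 (0.43 to 0.73) lie within 2-fold.

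The 10 ratios were tested against equal levels with limma, on the level of every gene against the same partner. Against Cav1, 99.2% of the 12296 other genes differed and 95.6% differed by more than 2-fold, and both Cav2 and Cav3 were among each. Against Cavin1, 99.1% differed and 95.1% by more than 2-fold. All 3 other cavins differed, and Cavin3 and Cavin4 passed the 2-fold test while Cavin2 did not (limma adjusted p = 0.0735). Against Ehd2, 97.1% differed and 86.6% by more than 2-fold. Ehd1, Ehd3 and Ehd4 all differed, and Ehd3 and Ehd4 did so by more than 2-fold. Against Pacsin3, 97.1% differed and 84.3% by more than 2-fold, and Pacsin1 and Pacsin2 both differed, Pacsin1 also by more than 2-fold.

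These shares show that most genes pass such a test, so the calls say little that is particular to caveola genes. The test pools the spread of all genes, all of which are set against the same partner, so its p-values are not independent. For the smallest ratios, Ehd1/Ehd2 had a 95% interval of 0.31 to 0.99 on the log2 scale (limma adjusted p = 0.000183) and Pacsin2/Pacsin3 one of 0.32 to 0.79 (limma adjusted p = 5.61e-06), both with the same direction in 3 of 3 libraries. Without library 1 the call of Ehd1/Ehd2 was lost (0.62, limma adjusted p = 0.122). The 2-fold call of Cav3/Cav1 was lost without library 2 (-1.36, limma adjusted p = 0.0547) and without library 3 (-1.16, limma adjusted p = 0.089). That of Cavin4/Cavin1 was lost without library 2 (-1.29, limma adjusted p = 0.105), and that of Ehd4/Ehd2 without library 1 (1.52, limma adjusted p = 0.126). Cavin2/Cavin1 passed the 2-fold test without library 3 (-1.19, limma adjusted p = 0.0185) and with the longest transcript (-1.21, limma adjusted p = 0.0339).

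In falling order of mean TPM the members were Cav1, Ehd4, Cavin1, Cav3, Cavin2, Cavin4, Ehd2, Pacsin3, Cavin3 and Cav2. Of the 9 neighbouring pairs in this order, 4 were separate, in that all 3 values of one lay above all 3 of the other. These were Cavin1 over Cav3 (2.16-fold in mean TPM), Ehd2 over Pacsin3 (1.28-fold), Pacsin3 over Cavin3 (1.37-fold) and Cavin3 over Cav2 (1.42-fold). Cav1, Ehd4 and Cavin1 were not separated from their neighbours among themselves, nor were Cav3, Cavin2, Cavin4 and Ehd2. Cavin2 stood above Cav3 without library 1 or without library 2. With the longest transcript as length Pacsin3 moved above Cav3, directly below Cavin1. By CPM, which does not correct for length, Ehd4 came first and Cav3 stood below Ehd2, Cavin2, Pacsin3 and Cavin4, and Cav2 stood above Cavin3. Without library 3, 7 neighbouring pairs were separate.

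Each member was then compared between libraries against genes of its level. Of 12521 genes tested, edgeR called 0.591% as more spread between the libraries than genes of the same level, and 0 of the 10 members were among them. At an unadjusted p under 0.05 there were 0 of 10 members by edgeR, against 5.39% of all genes tested. A Pearson statistic on the DESeq2 dispersion trend gave 1 of 10 (Ehd2), and it also called 0 members after adjustment. Without library 1, Ehd2 was under 0.05 unadjusted by edgeR as well. The lowest unadjusted p by edgeR was 0.0701, for Ehd2. With 3 libraries, a p that misses the threshold does not show that a member did not vary.

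Ehd2 had the widest range, at 254, 232 and 308 CPM, a coefficient of variation of 14.7% where counting error alone gives 1.22%. Pacsin3 followed in SD of log2 CPM (0.19; 186, 188 and 152 CPM), then Cav3 (0.17; 74.5, 84.4 and 67.6 CPM) and Cavin2 (0.16; 170, 188 and 215 CPM). Cav1 (495, 564 and 596 CPM) and Cavin1 (457, 502 and 554 CPM) each had an SD of 0.13, and Cav2 (62.6, 72.2 and 73.7 CPM) one of 0.12. The median over the 10 members was 0.126 and over all genes tested 0.142.

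The remaining 3 members were nearly level across libraries. Cavin3 stood at 48.8, 49.6 and 48.9 CPM, a coefficient of variation of 0.913% where counting error gives 2.83%. Ehd4 stood at 588, 588 and 613 CPM and Cavin4 at 115, 118 and 121 CPM, with coefficients of 2.38% and 2.53% where counting error gives 0.811% and 1.82%. Their SDs of log2 CPM were each 0.02. The antisense gene Gm45667 overlaps 374 bases of the Cavin3 exons and shares 20.1% of its 50-base words, so reads from the 2 cannot be told apart without strand. Pacsin3 overlaps the antisense gene Gm17281 over 42 bases of its exons. None of the members other than Cavin3 shared a 50-base word with another annotated gene.

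**Figure D4:**
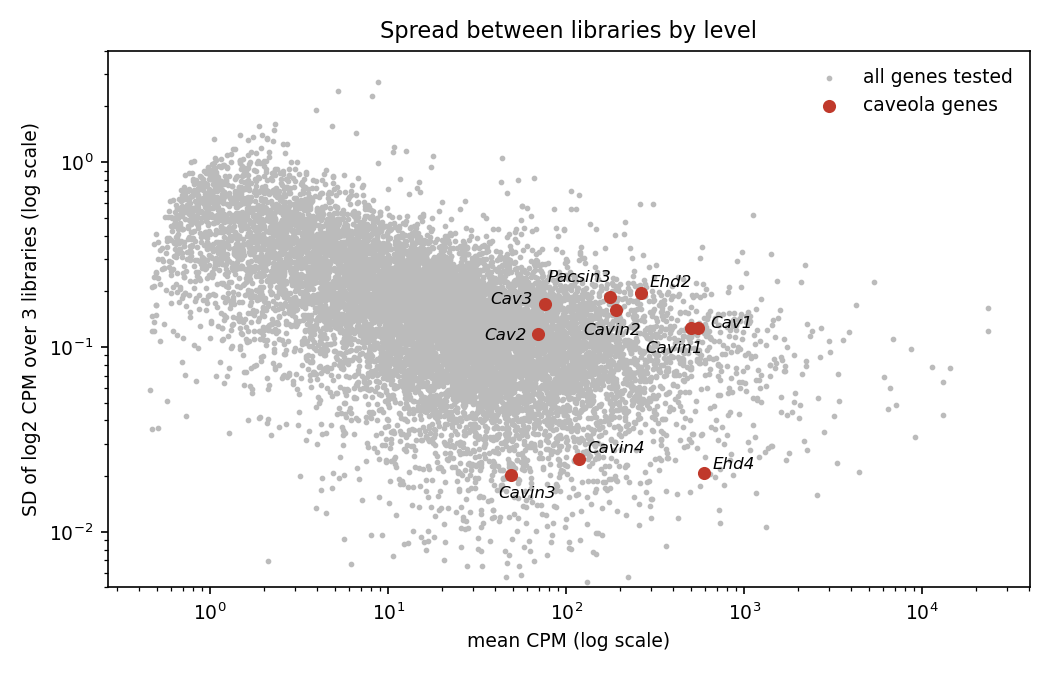
SD of log2 CPM over the 3 libraries against mean CPM, both on log axes, for all 12521 genes tested (grey) and the 10 caveola genes (red). Cavin3, Cavin4 and Ehd4 lie near 0.02 and the other 7 between 0.12 and 0.20.

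The members did not share 1 order of libraries. Library 1 was lowest for Cav1, Cav2, Cavin1, Cavin2, Cavin3 and Cavin4, and library 3 was highest for Cav1, Cav2, Cavin1, Cavin2, Cavin4, Ehd2 and Ehd4. Cav3 and Pacsin3, both known from muscle, were instead lowest in library 3 and highest in library 2 by CPM. Cavin4, the muscle cavin, did not share their order (115, 118 and 121 CPM). Pacsin3 was nearly level between libraries 1 and 2 (186 and 188 CPM). The marker lists of other cells also differed between libraries. The 7 mural markers summed to 1386, 1499 and 1722 CPM in libraries 1, 2 and 3, the order of Cav1 and Cavin1, and 4 of the 7 followed it one by one. The 8 fibroblast markers summed to 1365, 1634 and 1724 CPM, 6 of them followed that order, and 2, Col1a1 and Col3a1, were called by edgeR and are named for that. The 10 endothelial markers summed to 2682, 2758 and 2927 CPM, but 1 of the 10 had that order by itself and 6 were lowest in library 2. Without Fabp4 the other 9 summed to 1542, 1437 and 1727 CPM.

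The 7 macrophage markers summed to 1049, 989 and 971 CPM, the opposite order. One by one, 5 of the 7 were highest in library 1, but 4 were lowest in library 2 and 3 in library 3. Lyz2, the highest of them, was highest in library 2 (461, 477 and 440 CPM). The 10 cardiomyocyte markers summed to 87020, 82050 and 85830 CPM. Of these, 4 (Tnnt2, Tnni3, Myl2 and Pln) were highest in library 2 and lowest in library 3, as Cav3 and Pacsin3 were. An equal 4 went the other way, lowest in library 2 and highest in library 3. They were Myh6 (24450, 20300 and 25170 CPM), Actc1, Ryr2 and Mybpc3. Genes of both groups were named after their values were seen. The part of cell make-up in the levels of the members was not tested.

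**Figure D5:**
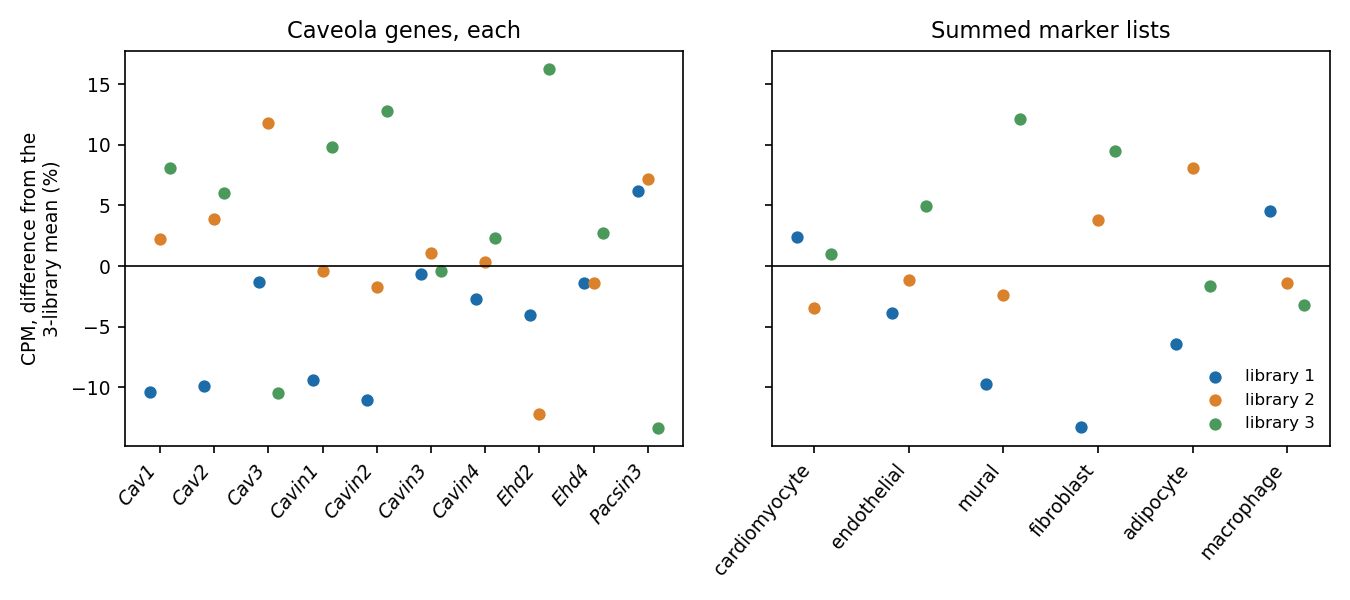
CPM in each library as the difference in percent from the 3-library mean, for each caveola gene (left) and for 6 summed marker lists (right); the adipocyte sum is nearly all Fabp4. Cav3 and Pacsin3 are lowest in library 3. Cav1, Cav2, Cavin1, Cavin2, Cavin4, Ehd2 and Ehd4 are highest there, as are the endothelial, mural and fibroblast sums.

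Other genes that shape the membrane at or near caveolae were described from a list of 18, of which 17 were detected and 0 were called by edgeR. At an unadjusted p under 0.05 there was 1 of the 18 (5.56%, against 5.39% of all genes tested). The list's median SD of log2 CPM was 0.118, against 0.142 over all genes. Ehd1 and Pacsin2, given above, were among the highest per length, together with the flotillins, scaffolds of flat membrane domains. Flot1 stood at 237, 233 and 219 TPM and Flot2 at 132, 131 and 144 TPM. The actin crosslinker Flna, which links caveolae to the cytoskeleton, stood at 85.7, 67.1 and 94.99 TPM, and the scission GTPase Dnm2 at 63.4, 58.6 and 70.4 TPM. Flot1 thus stood above Cav3 in every library and Dnm2 below it. Pacsin1 was the member of this list that was not detected in every library.

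Of 24 receptors, channels and enzymes known to associate with caveolae or with repair of the muscle membrane, 23 were detected. None of the 23 tested was called by edgeR, and 1 had an unadjusted p under 0.05 (4.35%, against 5.39% of all genes tested). Their median SD of log2 CPM was 0.0981. The fatty acid transporter Cd36 (1154, 1408 and 1417 TPM) stood above every caveola gene in each library. Trim72, the membrane repair protein that binds Cav3 in muscle, stood at 646, 587 and 598 TPM, above Cav3 in every library. Sgca of the sarcoglycan complex (344, 306 and 342 TPM), the G protein subunit Gnas (296, 304 and 325 TPM) and the matrix receptor Dag1 (229, 221 and 261 TPM) followed. Nos3, the endothelial nitric oxide synthase that Cav1 binds and restrains, was named after its values were seen and stood at 77.8, 68.9 and 78.0 TPM. Nos1, the neuronal form, had 5, 2 and 8 counts and was the gene of this list that was not detected.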

How the data were processed

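The deposited table holds raw counts as whole numbers, one row per gene symbol, for 3 libraries, and the authors applied no normalization to it. HISAT2 2.0.4, Bowtie2 2.2.5, RSEM and the build GRCm39 are named, per the submitters' processing notes, without role or order. RSEM gives estimated counts, so these may be rounded estimates. Strandedness was not given in the sources used here.

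Levels are CPM of the table's total, or TPM from the union of annotated exons in GENCODE M21 (GRCm38), matched by symbol for 16077 genes (96.9%) and used for lengths only. Spread between libraries was tested with edgeR 4.0.16: an intercept-only negative binomial model with TMM, the default filter on low counts and the trended dispersion, its deviance against chi-square, Benjamini-Hochberg over 12521 genes, threshold 0.05. Ratios within libraries, log2 of (count + 0.5) per kilobase, were tested with limma 3.58.1, two-sided, adjusted over all genes set against the same partner, and again beyond 2-fold. An exact sign-flip test of 3 libraries could not reach 0.05, so none was used. As an alternative for the spread, a Pearson statistic was set against chi-square, with size factors and the dispersion trend from DESeq2 1.42.0. Scripts were tested on simulated data. Each pair of libraries differed beyond sampling noise (chi-square over its degrees of freedom between 12.3 and 16.5).

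The members, pairs and lists were chosen with earlier results of these data known. The text names all members, the other EHD and pacsin genes, up to 6 genes of highest TPM per pathway list, and leading or absent markers. A gene that this rule names is not reported here. No likeness of pattern was computed from 3 libraries.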

Additional observations from a re-analysis of the deposited data

How the results depend on the processing

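The number of members called was 0 under every normalization, filter and left-out library tried, and with the Pearson statistic on the DESeq2 trend. At most 1 (Ehd2) had an unadjusted p under 0.05. All 10 members were detected at each limit of 0.5 CPM, 1 CPM and 5 CPM. Summed cavins over summed caveolins was 1.01 with the longest transcript and 1.24 with no length correction, against 1.18, and lay between 1.15 and 1.21 without single libraries. Pacsin2/Pacsin3 reversed to -0.15 with the longest transcript (limma adjusted p = 0.202). Ehd1/Ehd2 was no longer past the threshold with no length correction, at 0.18 (limma adjusted p = 0.225), and ranged from 0.60 to 0.73 without single libraries. With no length correction Cav3/Cav1 was -2.87, Cavin3/Cavin1 -3.36, Cavin4/Cavin1 -2.09 and Pacsin1/Pacsin3 -7.32, Cavin2/Cavin1 passed the 2-fold test (-1.40, limma adjusted p = 9e-05) and Ehd4/Ehd2 did not (1.18, limma adjusted p = 0.139), and with the longest transcript Ehd3/Ehd2 was -4.56 and Pacsin1/Pacsin3 -8.52. Leaving out single libraries gave 4 to 7 separate neighbours against 4, 9 to 10 ratios past the threshold against 10, and 5 to 7 past 2-fold against 7. Ranges from fewer libraries overlap less by construction. No paired analysis was possible because the libraries form a single group. With 2 degrees of freedom per gene, small differences between libraries were not detectable.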
